A study of Homo sapiens with 6 samples.

Results

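The placental alkaline phosphatases and the pregnancy-specific glycoproteins were followed in MDA-MB-231 cells after knockdown of PUS1. The group holds 8 genes of the 60605 in the deposited table, which are the alkaline phosphatase genes ALPP, ALPG and ALPL and the pregnancy-specific glycoprotein (PSG) genes PSG1, PSG4, PSG5, PSG7 and PSG9. They were taken by symbol, and the symbols were chosen by their levels in shPUS1 against shControl in these same libraries. Their differences between the groups are therefore given as a description. Where calls of the test over all genes are named for them, nothing is read from these calls. Of the 8 genes, 6 passed the filter on low counts together with 14748 genes in all. ALPG and ALPL did not. The relatives ALPI, PSG2, PSG3, PSG6, PSG8, PSG10P and PSG11 were read beside them, since near-identical copies can share reads.

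MDA-MB-231 is an established line of triple-negative breast cancer. The shControl group was 3 libraries of cells with a control hairpin, and the shPUS1 group was 3 libraries of cells with a hairpin against PUS1, the enzyme that turns uridine into pseudouridine in several kinds of RNA. Per the study's methods the hairpins were carried by the lentiviral vector pLKO.1, and infected cells were kept under puromycin, which both groups share. The column names give the PUS1 knockdown the number 2, and the labels do not say what this numbers or which hairpin was used. The sample titles call each library a biological replicate. They do not say whether the libraries of a group came from separate cultures, so p-values measure the spread between these libraries.

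PUS1 was read at 118, 100 and 91 estimated counts in shPUS1 replicates 1 to 3, and at 221, 524 and 178 in the shControl replicates. This was 5.80 ± 0.662 CPM (counts scaled to equal library depth; SD, n = 3) against 18.0 ± 8.26, a log2 difference of -1.62 ± 0.32 (SE) that had an adjusted p of 0.0462 in edgeR's quasi-likelihood test. Without shControl replicate 2 the log2 difference was -1.19 ± 0.16 (edgeR, adjusted p = 0.00311), and without shControl replicate 3 it was -1.84 ± 0.29 (edgeR, adjusted p = 0.0459). PUS1 lost its adjusted p under 0.05 when shControl replicate 1 or any shPUS1 library was left out (adjusted p of 0.0906 to 0.253, edgeR), and with limma it was 0.0668 to 0.0744. Library totals lay between 14241505 and 19625998 counts. The shControl replicate 2 stood apart, since its log2 CPM values correlated with the other shControl libraries at 0.9505 and 0.9521, while those correlated with each other at 0.981. The differences of the group's genes, the levels, the PSG sums and the counts of listed and neighbouring genes are therefore given with and without this library. The 8 markers of the line were all read, at unequal levels. The highest was the mesenchymal filament gene VIM, at a mean of 379 fragments per kilobase of exon and per library depth (FPKM). The receptor AXL was next, at 184 FPKM. The lowest were FN1 at 8.88 FPKM and SPARC at 1.63 FPKM. The summed FPKM of the 8 was 765 to 806 in shPUS1 and 975 to 1180 in shControl. Of 9 genes listed as markers of luminal lines, the hormone receptor genes were near 0, with 0 to 10 counts for ESR1 and 0 to 4 for PGR, but others were read, with the keratin gene KRT8 at a mean of 42.6 FPKM, ERBB2 at 5.67, EPCAM at 2.72 and GATA3 at 1.91 FPKM. Their sum was 46.1 to 48.3 FPKM in shPUS1 and 50.9 to 69.3 in shControl. Of the blood cell markers, CD3E had 0 counts and PTPRC and LYZ had 0 to 2, while CD68, a lysosomal gene of macrophages, was at 35.2 FPKM. The sum of this list was 27.8 to 31.7 FPKM in shPUS1 and 37.3 to 42.7 in shControl. The part of these in the results was not tested.

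Alkaline phosphatases split phosphate from many substrates at the outer face of the cell, where a glycosylphosphatidylinositol (GPI) anchor holds them. ALPP is made by the syncytiotrophoblast of the placenta and is also known as an ectopic product of tumours, ALPG is its close copy known from germ cell tumours, ALPI is the intestinal enzyme, and ALPL is the tissue-nonspecific enzyme of bone, liver and kidney. The PSG proteins are secreted members of the immunoglobulin superfamily, related to the CEACAM adhesion proteins, that the syncytiotrophoblast releases into the maternal blood. PSG1 is known to bind and activate latent TGF-beta.

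ALPP, ALPG and ALPI lie next to each other on chromosome 2 on the plus strand. In the deposited table ALPP spans chr2:232378724-232382889, ALPG chr2:232406844-232410714 and ALPI chr2:232456125-232460753. ALPL lies apart at chr1:21509397-21578410. The 11 PSG genes follow each other on the minus strand of chromosome 19 between 42721638 and 43269530. The table's start and end of these 15 genes differed from those of GENCODE release 29 (GRCh38) by 0 to 721 bases, on the same chromosome and strand.

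How well the copies can be told apart bears on each count. The coding sequences of ALPP (1605 bases) and ALPG (1596 bases) were 97.3% identical in a global alignment, against 88.5% for ALPP and ALPI and 62.8% for ALPP and ALPL. Of all 100-base stretches in the annotated transcripts of ALPP, 12.7% were also found in ALPG and in no other gene. For ALPG the share was 15.8%. Over its longest run the coding sequence of the pair was identical for 339 bases.

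The PSG copies were less alike at this scale. PSG4 shared 91.2% to 92.1% of its aligned coding bases with PSG1, PSG5, PSG7 and PSG9, and among the 11 PSG genes 2.43% (PSG4) to 10.8% (PSG8) of the 100-base stretches occurred in another PSG gene. PSG9 shared 5.88% with other PSG genes and 11.2% with CEACAMP10, a pseudogene annotated within its span, which was read at 1 count in shControl replicate 1 and at 0 in the other libraries. The 100-base coding stretches below, both from exon 2 on the minus strand (GENCODE 29, GRCh38), are shown because they are where PSG9 (chr19:43267784-43267883) and PSG4 (chr19:43203886-43203985) differ most within an exon, with the 14 differing bases in capitals.
PSG9: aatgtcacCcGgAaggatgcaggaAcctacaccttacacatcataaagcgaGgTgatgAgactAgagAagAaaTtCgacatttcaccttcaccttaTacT
PSG4: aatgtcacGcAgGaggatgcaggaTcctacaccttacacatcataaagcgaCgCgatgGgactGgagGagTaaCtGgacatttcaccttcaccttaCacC

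ALPP was high in every shPUS1 library and near the limit of detection in every shControl library. Its estimated counts were 174, 234 and 169 in shPUS1 replicates 1 to 3 and 10, 3 and 5 in shControl replicates 1 to 3. The groups did not overlap, and the lowest shControl library was replicate 2. The mean was 10.8 ± 1.72 CPM (SD, n = 3) in shPUS1 and 0.384 ± 0.251 CPM in shControl, a ratio of 28.2, and without shControl replicate 2 the ratio was 21.7. On the log2 scale the fitted difference was 4.48 ± 0.39 (SE), and 4.13 ± 0.28 without that library. Per length, ALPP was at 3.33, 4.45 and 3.44 FPKM in shPUS1 and at 0.23, 0.05 and 0.12 FPKM in shControl. The shPUS1 mean of 3.74 FPKM was above that of 45.6% of all tested genes, and the shControl mean of 0.133 FPKM was above that of 2.54%, beside a median tested gene at 4.55 and 4.62 FPKM. In such bulk RNA, fewer cells of a kind and less RNA per cell cannot be told apart.

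The other alkaline phosphatase genes were not read at a level that could be compared. ALPG and ALPI had 0 counts in all 6 libraries. For ALPG in shPUS1 this is 0 of 53678146 counts, which allows up to 0.0559 CPM over the 3 libraries together, and 0 of 48870706 counts in shControl allows up to 0.0614 CPM. These floors and the intervals below are for counting error only. ALPL had 2 counts in shPUS1 replicate 3 and 0 in the other 5 libraries. ALPP thus held 577 of the 579 alkaline phosphatase counts in shPUS1 (99.7%, exact 95% binomial interval 98.8 to 100) and 18 of 18 in shControl (interval 81.5 to 100). The sum of the 4 genes was at 10.8 ± 1.69 CPM in shPUS1 and 0.384 ± 0.251 CPM in shControl. Only 15.8% of the ALPG stretches are shared with ALPP, so most of its length is its own, and ALPG was listed at 0 in every library.

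**Figure D1:**
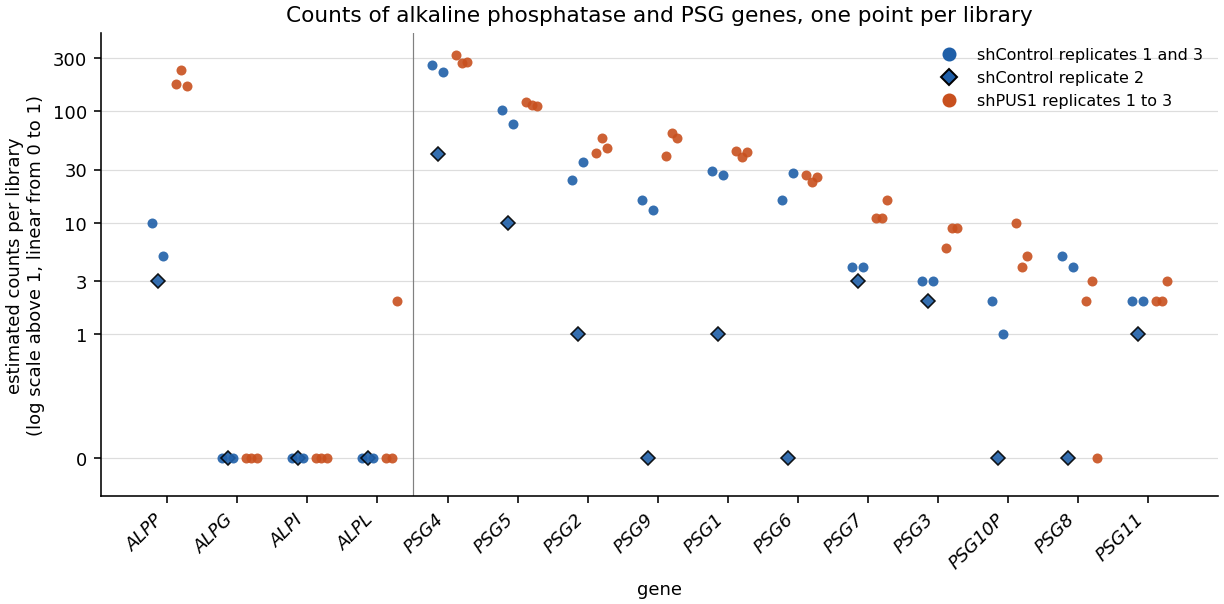
Estimated counts of the alkaline phosphatase genes (left of the line) and the PSG genes (right) on the vertical axis, which is a log scale above 1, with one point for each of the 6 libraries. ALPP sits at 169 to 234 counts in shPUS1 and at 3 to 10 in shControl, ALPG and ALPI sit at 0 throughout, and shControl replicate 2 (diamonds) lies far below the other shControl libraries for PSG4, PSG5, PSG2, PSG9, PSG1 and PSG6.

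The promoters of ALPP and ALPG were compared because ALPP was read and its copy was not. In the RefSeq windows (GRCh38.p14) the 250 bases before each start were 84.4% identical, with an identical run of 64 bases, against 56.6% for ALPP and ALPI. The windows below are chr2:232378501-232378750 for ALPP and chr2:232406594-232406843 for ALPG, both on the plus strand. Capitals mark the 34 bases in each that differ from the other or have no partner in the alignment. In GENCODE release 29 the ALPP transcript begins 190 bases before the start in the deposited table, within this window.
ALPP: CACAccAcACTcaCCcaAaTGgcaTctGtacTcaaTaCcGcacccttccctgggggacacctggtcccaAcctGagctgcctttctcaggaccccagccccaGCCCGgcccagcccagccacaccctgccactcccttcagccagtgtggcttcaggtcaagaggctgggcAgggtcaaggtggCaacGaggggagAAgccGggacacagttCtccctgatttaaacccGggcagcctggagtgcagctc
ALPG: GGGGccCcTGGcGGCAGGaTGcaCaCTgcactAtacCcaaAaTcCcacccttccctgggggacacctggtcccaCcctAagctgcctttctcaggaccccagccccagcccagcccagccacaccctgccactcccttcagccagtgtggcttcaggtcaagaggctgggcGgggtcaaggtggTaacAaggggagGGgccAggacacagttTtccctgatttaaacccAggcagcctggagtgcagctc

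Most capitals fall in the first part of the windows. The identical run of 64 bases lies in the middle, and differing bases are scattered between it and the start. Motifs were searched on both strands in the 250 bases before the start of 35116 RefSeq windows. The TATA-like TTTAAA, which reads the same on both strands, began at position -30 from the start in ALPP and in ALPG, and 11.3% of all windows held it. The nuclear receptor half-site AGGTCA began at -96 in both and was in 12.1% of all windows. The GC box GGGCGG was found in ALPG at -83 and not in ALPP, with 42.6% of all windows holding it. The TATA box TATAAA, in 10.7% of windows, was in neither. The AP-1 motif TGACTCA, in 4.2% of windows, and the CCAAT box, in 32% of windows, were also in neither. These matches are descriptions of letters and were not tested for binding. Of the 3 PSG genes searched, PSG4 held the GC box at -44 and PSG3 at -49, both on the opposite strand, and PSG5 held none of the motifs.

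PSG4 and PSG5 carried most of the PSG reads in every library. PSG4 was at 316, 272 and 277 counts in shPUS1 and at 259, 41 and 226 in shControl replicates 1 to 3. In CPM the groups overlapped, and shControl replicate 2 was far below the rest. The fitted log2 difference was 0.50 ± 0.59, and it was 0.00 ± 0.13 without shControl replicate 2. PSG5 was at 122, 113 and 111 counts in shPUS1 and at 102, 10 and 77 in shControl. For PSG5 too the low library set the difference, which was 0.65 ± 0.66 with it and 0.12 ± 0.17 without it. In shControl replicates 1 and 3 these genes were at 16.2 ± 1.10 CPM (PSG4) and 5.95 ± 1.01 CPM (PSG5), beside 16.3 ± 1.35 and 6.51 ± 0.293 CPM in shPUS1.

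PSG9 differed from that pattern. It was at 40, 64 and 57 counts in shPUS1 and at 16, 0 and 13 in shControl replicates 1 to 3. All shPUS1 libraries were above all shControl libraries, whether or not replicate 2 was counted. The mean was 3.03 ± 0.7 CPM in shPUS1 and 0.643 ± 0.563 CPM in shControl, or 0.965 ± 0.114 CPM in shControl replicates 1 and 3, a ratio of 3.14 against these. The fitted log2 difference was 2.08 ± 0.75 with all libraries and 1.53 ± 0.32 without shControl replicate 2.

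PSG7, at lower counts, was likewise above shControl in each library. It had 11, 11 and 16 counts in shPUS1 and 4, 3 and 4 in shControl. In CPM shControl replicate 2 was the lowest here too, at 0.157 beside 0.261 and 0.272 in replicates 1 and 3. The log2 difference was 1.28 ± 0.38 with replicate 2 and 1.11 ± 0.43 without it. These are few counts, and 3.5% of the 100-base stretches of PSG7 are found in other PSG genes.

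PSG1 was at 44, 39 and 43 counts in shPUS1 and at 29, 1 and 27 in shControl. The groups did not overlap, yet shControl replicates 1 and 3 lay 35.6 times above replicate 2 in mean CPM, further than they lay from shPUS1. The log2 difference of PSG1 was 0.88 ± 0.74 with all libraries and 0.32 ± 0.25 without shControl replicate 2.

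Of the 6 tested genes of the group, 1 was past the threshold (a log2 difference of 1 or more in size with an adjusted p under 0.05, by edgeR), ALPP, where 0.881% of all tested genes were past it and higher and 0.475% were past it and lower. Without shControl replicate 2 there were 2, ALPP and PSG9, beside 1.56% of all tested genes higher and 1.56% lower. Every shPUS1 library was above every shControl library for 4 of the 6 (ALPP, PSG1, PSG7 and PSG9), as for 18.8% of all tested genes, and 17.3% were the other way round. Without shControl replicate 2 it was 4 of 6 beside 25.0%. The genes were picked on this contrast, so nothing is read from these counts. ALPP was not past the threshold when shPUS1 replicate 2 or shPUS1 replicate 3 was left out, with log2 differences of 4.33 ± 0.46 and 4.53 ± 0.46, settings that left 6 and 0 genes past it and higher in the whole table. PSG9 was also past it by DESeq2 and with no filter on low counts, and not when any other single library was left out. Nothing is read from these calls either, since the same contrast picked the genes.

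**Figure D2:**
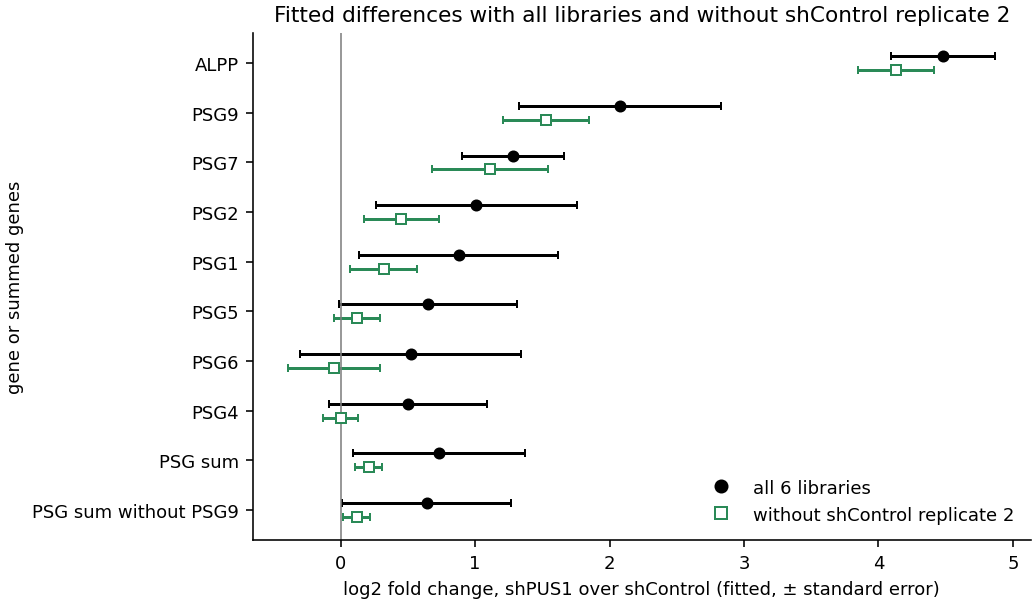
Fitted log2 fold change of shPUS1 over shControl with its standard error (bars) for ALPP, the tested PSG genes and the PSG sums, with all 6 libraries (filled circles) and without shControl replicate 2 (open squares). ALPP stays at 4.13 and PSG9 at 1.53 without that library, while PSG4, PSG5 and PSG6 lie at 0.00, 0.12 and -0.05.

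Among the PSG genes outside the group, PSG2 was at 42, 58 and 47 counts in shPUS1 and at 24, 1 and 35 in shControl. PSG6 was at 27, 23 and 26 counts in shPUS1 and at 16, 0 and 28 in shControl. For both, shPUS1 lay near shControl replicates 1 and 3, with log2 differences of 0.45 ± 0.28 and -0.05 ± 0.34 without replicate 2. PSG3, with 6, 9 and 9 counts against 3, 2 and 3, PSG10P, with 10, 4 and 5 against 2, 0 and 1, PSG11, with 2, 2 and 3 against 2, 1 and 2, and PSG8, with 2, 3 and 0 against 5, 0 and 4, did not pass the filter. PSG8 and PSG10P overlap in the annotation.

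The sum of the 11 PSG genes does not depend on which of these copies a read was given to. Reads dropped for matching several copies, if any were, would be missing from the sum as well. The PSG sum was 622, 598 and 594 counts in shPUS1 and 462, 59 and 420 in shControl. The shPUS1 libraries were nearly level, at 34.1 ± 1.23 CPM, and shControl was at 20.6 ± 15.2 CPM, or 29.4 ± 1.15 CPM without replicate 2. The ratio was 1.65 with all libraries and 1.16 without that one, and the log2 difference was 0.73 ± 0.64 and 0.21 ± 0.10. Without PSG9 the sum differed by 0.64 ± 0.63 with all libraries and 0.12 ± 0.10 without shControl replicate 2. The spread of the log2 CPM of the PSG sum was 0.05 (SD) within shPUS1 and 1.85 within shControl, beside 0.12 and 0.32 for the median tested gene.

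The low PSG reads of shControl replicate 2 were seen for most PSG genes of the cluster, to unequal degrees. In 4 of the 6 tested genes of the group (PSG1, PSG4, PSG5 and PSG9) this library had at most 0.25 times the CPM of each other shControl library, as was the case for 2.97% of all tested genes. The genes of the group were picked on a contrast that a low shControl library enlarges, so nothing is read from this share. PSG2 and PSG6, outside the group, were also that low in this library, and PSG7 and ALPP were not. It was still the lowest of the 6 libraries for PSG7 and ALPP, with shControl replicates 1 and 3 at 1.7 and 3.16 times its CPM. Of the PSG genes below the filter, PSG8 and PSG10P were at 0 counts in it and at few in the others. PSG3 and PSG11 were above 0.25 times, though also lowest in it. PSG3, PSG7 and PSG11 had so few counts in the shControl libraries that this cut can hardly show a drop in them. The mean PSG sum of shControl replicates 1 and 3 was 9.51 times that of replicate 2. PUS1 was at 27.4 CPM in this library and at 14.4 and 12.1 CPM in the other shControl libraries, so it stood highest in the library where the PSG genes were lowest. Whether the 2 are connected was not tested.

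PSG4 held the largest share of the PSG reads in every library. It had 50.8%, 45.5% and 46.6% of the PSG counts in shPUS1 and 56.1%, 69.5% and 53.8% in shControl. Pooled, this was 47.7% (exact 95% interval 45.4 to 50) of 1814 counts and 55.9% (52.7 to 59.1) of 941 counts. PSG5 held 19.1% and 20.1%. PSG9 held 6.43%, 10.7% and 9.60% in shPUS1, which is above the 3.46% and 3.10% of shControl replicates 1 and 3. In shControl replicate 2 it was 0 of 59 counts, with an interval up to 6.06%. By FPKM, which allows for length, PSG4 held 37.9% and 46.1% and PSG9 8.75% and 3.20%.

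**Figure D3:**
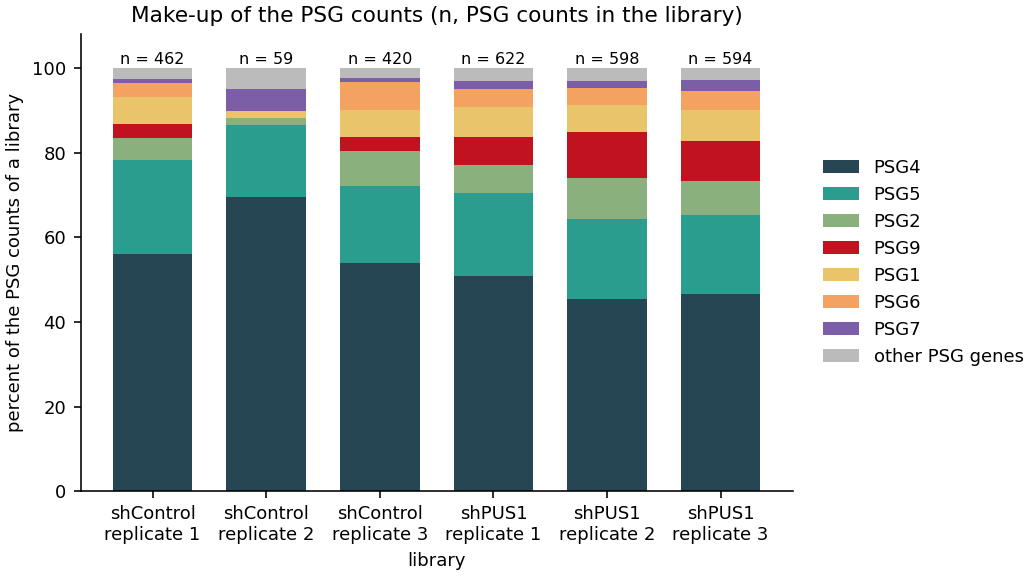
Percent of the PSG counts of each library (vertical axis) held by each PSG gene, with the number of PSG counts above each bar. PSG4 makes up 45.5% to 69.5% of a library, and PSG9 (red) makes up 6.43% to 10.7% in shPUS1 and 0.0% to 3.46% in shControl.

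Among the tested genes of both families, ordered by FPKM within shPUS1, ALPP (3.74 ± 0.617) came before PSG4 (2.57 ± 0.200), PSG5 (1.38 ± 0.0557), PSG2 (0.967 ± 0.155), PSG9 (0.593 ± 0.142), PSG1 (0.477 ± 0.0416), PSG6 (0.277 ± 0.0321) and PSG7 (0.147 ± 0.0379). PSG9 and PSG1 were within their spread of each other. In shControl the order was PSG4 (1.87 ± 1.34), PSG5 (0.907 ± 0.705), PSG2 (0.483 ± 0.430), PSG1 (0.260 ± 0.217), PSG6 (0.197 ± 0.190), ALPP (0.133 ± 0.0907), PSG9 (0.130 ± 0.114) and PSG7 (0.05 ± 0.0173), and neighbours in it lay within their spread. With shControl replicates 1 and 3 alone, ALPP (0.175 ± 0.0778) came after PSG9 (0.195 ± 0.0212) and within its spread, and PSG4 (2.64 ± 0.156) and PSG5 (1.30 ± 0.205) lay further apart than theirs. ALPP thus stood below PSG6 in shControl and at the head of the order in shPUS1. Of the genes that did not pass the filter, PSG10P was at 0.193 ± 0.0945 FPKM in shPUS1, between PSG6 and PSG7, and PSG3 and PSG8 were at 0.05 FPKM in shControl, level with PSG7.

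Genes with a course like ALPP over the 6 libraries were sought by the root mean square difference of log2 CPM after centring each gene on its own mean. Of 13719 tested genes with a symbol, the closest were AKR1C1, a steroid and aldehyde reductase (0.48), PRSS35, a serine protease relative (0.49), the noncoding LINC02474 (0.55), IL10RB-DT, a divergent transcript of IL10RB (0.61), and LINC02694 (0.62), where the median gene was at 2.34. AKR1C1 was at 21.7, 31.1 and 25.5 CPM in shPUS1 and at 4.38, 0.785 and 1.70 CPM in shControl. It has close relatives that may share reads. PRSS35 was at 8.45, 13.7 and 12.3 CPM in shPUS1 and at 0.327, 0.314 and 0.544 CPM in shControl. On log2(FPKM + 0.1), 3 of the 5 genes were again among the closest 5.

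The genes closest to the PSG sum were FLI1, an ETS transcription factor (0.10), GDF15, a stress cytokine of the TGF-beta superfamily that the placenta also makes (0.12), CDS1, an enzyme of phospholipid synthesis (0.15), RNF112 (0.17) and the orphan nuclear receptor NR4A1 (0.17), with the median gene at 1.27. FLI1 was at 44.6, 38.5 and 44.9 CPM in shPUS1 and at 32.4, 3.77 and 31.5 CPM in shControl. All 5 were lowest in shControl replicate 2, which follows from choosing them by likeness to a sum that drops there. On log2(FPKM + 0.1), 3 of the 5 were again among the closest 5. None of these 5 was past the threshold between the groups.

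**Figure D4:**
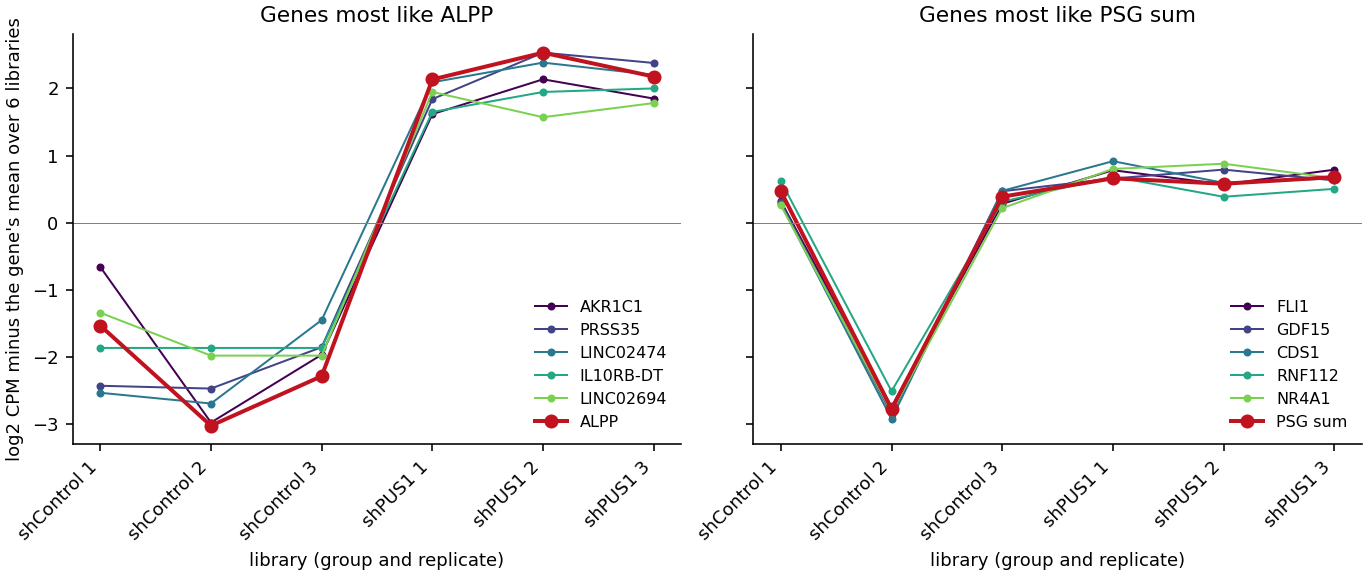
log2 CPM minus the mean of each gene over the 6 libraries (vertical axis) for ALPP and the 5 genes most like it (left) and for the PSG sum and the 5 genes most like it (right). ALPP and its neighbours change between the groups, whereas the PSG sum and its neighbours drop in shControl replicate 2. The neighbours were chosen for having these courses.

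Genes around the clusters were read to see whether the difference reached beyond the members. Within 500 kb of ALPP to ALPI, 7 genes were tested and 1 was past the threshold, TIGD1, a gene derived from a transposable element. Over all tested genes 0.881% were past it and higher and 0.475% past it and lower. TIGD1 was lower, at 1.00, 1.15 and 1.06 CPM in shPUS1 and 3.27, 2.77 and 2.93 CPM in shControl, a log2 difference of -1.39 ± 0.26 (edgeR, adjusted p = 0.0446). Leaving out any 1 library other than shControl replicate 2 took it off the threshold (edgeR, adjusted p of 0.0554 to 0.244), with log2 differences of -1.43 to -1.32. Without that library TIGD1 was at -1.44 (edgeR, adjusted p = 0.00921). Limma called 0 of the 7. DESeq2 called 2 lower, TIGD1 and NGEF, a guanine nucleotide exchange factor with an edgeR log2 difference of -1.06 ± 0.24 (adjusted p = 0.0575), or -0.88 without shControl replicate 2. Of the 7, 0 were past the threshold and higher by any of these tools, with 0 higher and 2 lower at an unadjusted p under 0.05. At that p 12.6% of all tested genes were higher and 12.8% lower. Within 500 kb of the PSG cluster 0 of 27 tested genes were past the threshold by edgeR, DESeq2 or limma, with 4 higher and 4 lower at an unadjusted p under 0.05. The highest of these by mean FPKM were PAFAH1B3 and ERF, an ETS-family repressor. PAFAH1B3 was at 45, 48.1 and 51.4 CPM in shPUS1 and 51.2, 60.1 and 46.4 CPM in shControl. ERF was at 82.6, 87.4 and 83.8 CPM in shPUS1 and 79.0, 70.3 and 72.3 CPM in shControl. Of the 27, CD177 and LIPE-AS1 had at most 0.25 times the CPM of each other shControl library in shControl replicate 2. They are named after their values were seen. Around ALPL, 0 of 9 tested genes were past the threshold by edgeR, DESeq2 or limma, with 2 higher and 1 lower at an unadjusted p under 0.05. The highest of them by mean FPKM, ECE1 and CDC42, had log2 differences of -0.08 ± 0.12 and -0.20 ± 0.16. Leaving out shControl replicate 2, edgeR put 0 of 28 genes around the PSG cluster and 1 of 9 around ALPL past the threshold. The latter was the pseudogene HS6ST1P1, which was higher and is named after its values were seen. In that setting 1.56% of all tested genes were past it and higher and 1.56% past it and lower. Nothing particular to the neighbourhoods is read from these counts.

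The list of other placenta and trophoblast genes showed no change past the threshold with all 6 libraries. Of 46 genes, 16 had 0 counts in all libraries, among them the hormone genes CSH1, CSH2 and GH2 and the placental galectin LGALS13, and 15 were tested. None was past the threshold by edgeR, DESeq2 or limma, with 1 higher and 1 lower at an unadjusted p under 0.05, where 12.6% of all tested genes were higher and 12.8% lower at that p. The median log2 difference was 0.05 beside -0.03 over all tested genes. Without shControl replicate 2, 1 gene was past the threshold, STS, which was higher, and the median was -0.15 beside -0.02 over all tested genes. In that setting 1.56% of all tested genes were past it and higher and 1.56% past it and lower. The highest by mean FPKM was KISS1 (82.6 FPKM), which encodes kisspeptin. KISS1 was at 55.1, 53.3 and 59.3 CPM in shPUS1 and 76.3, 27.2 and 80.4 CPM in shControl. TFRC, the transferrin receptor (71.1 FPKM), was higher than KISS1 in CPM, at 579, 617 and 505 CPM in shPUS1 and 517, 561 and 545 CPM in shControl. CGA, the alpha subunit of chorionic gonadotropin, had 1, 1 and 0 counts in shPUS1 and 3, 0 and 1 in shControl. Of the other PSG and CEACAM genes, 4 of 18 were tested, and 0 were past the threshold by edgeR, DESeq2 or limma, with 0 at an unadjusted p under 0.05. The median log2 difference was 0.50, or 0.02 without shControl replicate 2, where 0 were past the threshold by edgeR. CEACAM19 was at 11.7, 12.6 and 12.9 CPM in shPUS1 and 10.5, 3.72 and 12.7 CPM in shControl.

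Of 36 transcription factors known from trophoblast genes, 24 were tested. None was past the threshold by edgeR or limma and 1, DLX4, by DESeq2, with 10 higher and 1 lower at an unadjusted p under 0.05. Of all tested genes, 12.6% were higher and 12.8% lower at that p. The median log2 difference of the factors was 0.37, or 0.23 without shControl replicate 2, where DLX4 was past the threshold by edgeR as well. In that setting 1.56% of all tested genes were past it and higher. In 11 of the 24 every shPUS1 library lay above every shControl library, beside 18.8% of all tested genes, and in 1 every one lay below, beside 17.3%. Without shControl replicate 2 it was 12 above, beside 25.0%, and 3 below, beside 25.8%. Nothing particular to the list is read from these counts. The highest by mean FPKM were HIF1A, the hypoxia factor, and CEBPB. HIF1A was at 900.0, 898 and 897 CPM in shPUS1 and 609, 322 and 670 CPM in shControl. Its log2 difference was 0.75, or 0.48 without shControl replicate 2. CEBPB was at 175, 183 and 189 CPM in shPUS1 and 200, 76.2 and 158 CPM in shControl. HIF1A and CEBPB were both lowest in shControl replicate 2. GCM1 and ELF5, which act in the trophoblast, did not pass the filter.

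The list for the GPI anchor that ALPP needs held 32 genes, most of them for making and attaching the anchor and some for remodelling or cleaving it, such as the phospholipase gene GPLD1, and 30 were tested. None was past the threshold by edgeR or limma, and 2 were lower by DESeq2 (PGAP3 and PIGM). At an unadjusted p under 0.05, 3 were higher and 6 lower, beside 12.6% and 12.8% of all tested genes. The median log2 difference was -0.28, beside -0.03 over all tested genes. With shControl replicate 2 left out, 0 were past the threshold by edgeR and the median was -0.11, beside -0.02 over all tested genes. Nothing particular to the list is read from these counts. The highest by mean FPKM were PIGY and PIGK, a subunit of the transamidase that attaches the anchor. PIGY was at 54.2, 61.0 and 62.1 CPM in shPUS1 and 74.5, 98.3 and 56.1 CPM in shControl. PIGK was at 120, 120 and 137 CPM in shPUS1 and 119, 129 and 111 CPM in shControl.

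Phosphate, pyrophosphate and vitamin B6 metabolism, which alkaline phosphatases act on, was represented by 30 genes, and 22 were tested. None was past the threshold by edgeR or limma and 1, ADORA2A, by DESeq2. At an unadjusted p under 0.05, 5 were higher and 2 lower, beside 12.6% and 12.8% of all tested genes. The median log2 difference was -0.10, beside -0.03 over all tested genes. By edgeR without shControl replicate 2, ADORA2A was past the threshold and higher, ABCC6 was past it and lower, and the median was -0.05. In that setting 1.56% of all tested genes were past it and higher and 1.56% past it and lower, with a median of -0.02. Nothing particular to the list is read from these counts. NT5E, the ecto-5'-nucleotidase, which is GPI-anchored as well, was at 803, 788 and 798 CPM in shPUS1 and 830, 999 and 837 CPM in shControl. PPA1, a cytosolic pyrophosphatase, was at 154, 150 and 175 CPM in shPUS1 and 206, 211 and 154 CPM in shControl.

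The last list held 31 proteins that PSG proteins are known to bind or that store and release TGF-beta, and 28 were tested, with a median log2 difference of -0.02, or 0.05 without shControl replicate 2. TGFB2, a TGF-beta ligand, and ITGB8, the integrin subunit that takes part in releasing it, were past the threshold and higher. Past it and lower were 0 genes by edgeR, DESeq2 or limma. Over all tested genes 0.881% were past it and higher and 0.475% past it and lower by edgeR. At an unadjusted p under 0.05, 7 of the 28 were higher and 5 lower, beside 12.6% and 12.8% of all tested genes. Nothing particular to the list is read from these counts. TGFB2 was at 351 ± 7.2 CPM in shPUS1 and 143 ± 49.7 CPM in shControl, which is 1.30 ± 0.25 on the log2 scale (edgeR, adjusted p = 0.0460). ITGB8 was at 9.5 ± 2.79 and 1.44 ± 0.799 CPM, which is 2.65 ± 0.45 on the log2 scale (edgeR, adjusted p = 0.0372). Both were also past the threshold by DESeq2 and without shControl replicate 2 (log2 fold changes of 1.03 and 2.24), and 0 of the listed genes were by limma. Neither was past it when shControl replicate 1 or any 1 of the shPUS1 libraries was left out (edgeR, adjusted p of 0.0949 to 0.244 for TGFB2 and 0.0906 to 0.222 for ITGB8), while the log2 differences were 1.29 to 1.39 and 2.39 to 2.86.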

How the data were processed

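Poly(A)-selected RNA of 6 MDA-MB-231 libraries was sequenced by the authors. Their processing notes name HISAT2 and HTSeq 0.6.1. How multiply mapped reads were treated, the genome build and the strandedness are not given in the sources used here. Deposited are estimated counts for each gene, taken as unnormalized because library totals differ, and FPKM values that the authors made from them per kilobase of exonic length and library total. Of the counts above 0, 31.0% were not whole (10.3% for the genes of both families), which HTSeq counts would be, so another counter or a rescaling may have been used. How reads of near-identical copies were assigned is then unknown, and the binomial intervals take the rounded values as reads.

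Counts were rounded, filtered with filterByExpr, scaled by TMM (factors 0.9732 to 1.032) and tested over all 14748 genes that passed with edgeR 4.0.16 (quasi-likelihood test, prior count 2, Benjamini-Hochberg adjustment) in R 4.3.3. CPM use the same scaling. DESeq2 1.42.0 and limma 3.58.1 on log2(FPKM + 0.01, 0.1 or 1) were alternatives, beside other scalings and filters, a replicate block and each library left out. The tests were checked on simulated data in which no library stood apart, so this check does not cover the case of shControl replicate 2. Transcripts of GENCODE 29 and RefSeq promoter windows (GRCh38.p14) were read with Biopython 1.88 under Python 3.11.15, and promoters of PSG1, PSG7 and PSG9 are not shown.

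The members and lists were chosen with earlier results of these data known. Named are all members, ALPI, every PSG gene, up to 3 genes past the threshold of each list and neighbourhood by smallest adjusted p, or the 2 with the highest mean FPKM where none passed, the 5 genes most like ALPP or the PSG sum, and PUS1. Other genes were named after their values were seen. No per-sample column was left out. Proteins were not used here.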

Additional observations from a re-analysis of the deposited data

How the results depend on the processing

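The log2 difference of ALPP and of the alkaline phosphatase sum stayed positive in every setting run, and it moved by more than the spread between replicates only with limma on log2(FPKM + 1), to 2.06, where the pseudocount understates low genes. PSG7, at 1.28, went to 1.66 with DESeq2, to 1.64 by unrounded mean CPM, and to 0.71 and 0.13 with limma at pseudocounts of 0.1 and 1, and PSG9 to 0.50 at 1. The number of genes past the threshold depended far more on the setting. It was 130 higher and 70 lower, 291 and 238 with no filter on low counts, 245 and 233 with DESeq2, 54 and 27, 63 and 33, and 49 and 13 with limma at pseudocounts of 0.01, 0.1 and 1, and 0 to 236 in each direction with 1 library left out, with 0 higher and 0 lower without shPUS1 replicate 3 and 236 each without shControl replicate 2. With the replicate number as a block it was 18 higher and 0 lower. Deviations from the group means correlated at -0.053, -0.026 and -0.19 between same-numbered libraries. With 3 libraries a group and shControl replicate 2 standing apart, these values cannot decide whether same-numbered libraries were paired. Of the listed genes, 2 were higher and 0 lower, and the count of higher ones was 1 with library totals only, 5 with no filter, 4 with DESeq2, 0 with the replicate block, 0 with limma at each pseudocount, and 0 to 5 with 1 library left out. The count of lower ones was 2 with no filter, 2 with DESeq2 and 0 to 1 with 1 library left out. The cause was not tested. Depth limits ALPG, ALPI, ALPL and the PSG genes with fewer than 10 counts a library, whose differences were not detectable or rest on few reads.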

Other observations

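Some listed genes missed the edgeR threshold with all 6 libraries and were past it without shControl replicate 2, and they are named after their values were seen. DLX4 and ADORA2A were also past it by DESeq2 with all 6 libraries. STS, the steroid sulfatase of the placenta, had a mean of 76.5 ± 7.11 CPM in shPUS1 (SD, n = 3) and of 39.4 ± 13.9 CPM in shControl, a log2 difference of 1.26 without that library (edgeR, adjusted p = 0.00177) and of 0.95 with it (adjusted p = 0.0719). The homeobox gene DLX4 was at 3.33 ± 0.328 and 1.19 ± 0.595 CPM, a log2 difference of 1.09 without that library (edgeR, adjusted p = 0.0272) and 1.42 with it (adjusted p = 0.0838). The adenosine receptor gene ADORA2A was at 32.3 ± 6.81 and 11.4 ± 4.39 CPM, a log2 difference of 1.20 without it (edgeR, adjusted p = 0.00516) and 1.49 with it (adjusted p = 0.0519). ABCC6, a transporter that feeds extracellular pyrophosphate, was lower, at 0.561 ± 0.0779 and 1.34 ± 0.621 CPM, a log2 difference of -1.37 without it (edgeR, adjusted p = 0.0289) and -1.09 with it (adjusted p = 0.153).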
